A study of Mus musculus with 10 samples.

Results

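The carriers described here move organic anions and cations, vitamins, short-chain acids and nucleosides across cell membranes. They are the genes whose symbol in the array's annotation begins with Slc13a, Slc16a, Slc17a, Slc19a, Slc22a, Slc23a, Slc28a, Slc29a or with Slco and a digit, Slc13a1 left out. That gave 72 of the 18193 genes on the array. Where a gene had several probe sets, the brightest on average was used. Of the 72, 42 lay above the level kept for testing and 30 did not.

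Expression was measured on oligonucleotide arrays with total RNA of B6xBALB F2 mice, so every animal carries its own mixture of the parental genomes. There were 5 cystic fibrosis (CF) knockouts with the letter H in the title (knockout H), 3 with the letter L (knockout L) and 2 controls, whose titles hold D and W. The labels do not say what these letters mean, which Cftr allele was used, or the animals' age and diet. The title numbers form a lower range, with both controls and 3 knockouts (H replicates 4 and 5, L replicate 3), and an upper range, with the other 5 knockouts. The letter M stands in 6 titles and F in 4, and sex-linked transcripts, given below, mark M as male and F as female. Further animals that the design text counts were not analysed here. Nothing says how the samples were taken beyond 1 title number each, so p-values measure the spread between these arrays.

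Cells take up water-soluble compounds that cross lipid membranes poorly with carriers of these families. Slc22 and Slco carriers are best known for clearing drugs, hormones and waste ions in kidney and liver. Slc13, Slc16, Slc19, Slc23, Slc28 and Slc29 carriers are known for citrate cycle acids, lactate and short-chain fatty acids, folate and thiamine, ascorbate, and nucleosides. In the small intestine several of them sit in the brush border, where PDZ scaffold proteins hold membrane proteins in place.

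The source is labelled whole right lung, but the series title names the intestine. Of 14 genes on the small intestine epithelium list 9 stood above the 95th percentile of genes. Among the 14 is Pdgfb, a growth factor gene and not an intestinal marker, which was matched to the list's symbol Sis. Pdgfb read 26.0 to 51.6 in knockouts and 34.9 and 36.0 in controls, and is not 1 of the 9. The median percentile of the 14 was 97.5, against 86.0 for 7 alveolar type 2 and 86.1 for 5 club cell markers. Of these lung markers 2 alveolar type 2 (Sftpc and Slc34a2) and 1 club cell marker (Scgb1a1) stood above the 95th percentile. Slc34a2 ran from 355 to 733 in knockouts, against 1310 and 1162 in controls (log2 difference of -1.17 ± 0.28, SE). Of the 7 alveolar markers 5 had a positive and 2 a negative difference. Slc34a2 is among the lung transcripts used as a covariate below. The alveolar marker Sftpc read at least 1099 and the club cell marker Scgb1a1 at least 2011 on every array, so lung transcripts were present throughout. Many of these carriers are known from kidney and liver. Of 7 kidney markers 4, Umod among them, were too dim to be tested. Of 6 hepatocyte markers the liver product Alb was too dim and 5 were tested, with a median percentile of 57.9 over the 6 and 1 above the 95th percentile. Cftr averaged 28.1 ± 6.63 in knockouts and 134 ± 4.47 in controls (intensity in arbitrary units, SD, n = 8 and 2). In these bulk samples fewer cells of a type and less RNA per cell cannot be told apart. The 14 genes of the intestinal list, Pdgfb included, summed to between 24402 and 29965 in knockouts, against 34397 and 32477 in controls, without overlap. Of the 14, 3 were called lower, and Pdgfb was not among them. As a mean log2 deviation, which weighs each of the 14 alike, the groups overlapped: knockout L replicate 1 stood at 0.18, against 0.24 and 0.17 in controls. Neither measure was computed without Pdgfb. The part of these markers in the carriers' differences was not tested.

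Between knockouts and controls 3 carriers changed, and all 3 fell: Slc13a2, the sodium-coupled citrate and succinate carrier, Slc22a4, the ergothioneine carrier, and Slc22a5, the carnitine carrier. They are 3 of 42 tested (limma, adjusted p under 0.05 over 13644 genes), while 4.31% of all genes were called and 2.79% were called lower. None of the 42 was called higher, against 1.52% of all genes. Log2 differences (knockout minus control, of log2(intensity + 16)) were negative for 21 carriers and positive for 21, with a median of 0.00, against -0.00 over all genes. All 8 knockouts lay below both controls for 8 of the 42, against 11.7% of all genes, and above both for 1, against 1370 of the 13644 genes (10%). An unadjusted p under 0.05 was found for 12 carriers, 9 lower and 3 higher, against 19.4% of all genes. Number range and letter were covariates of the fit; since the upper range holds no control, the difference rests on the arrays of the lower range.

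**Figure D1:**
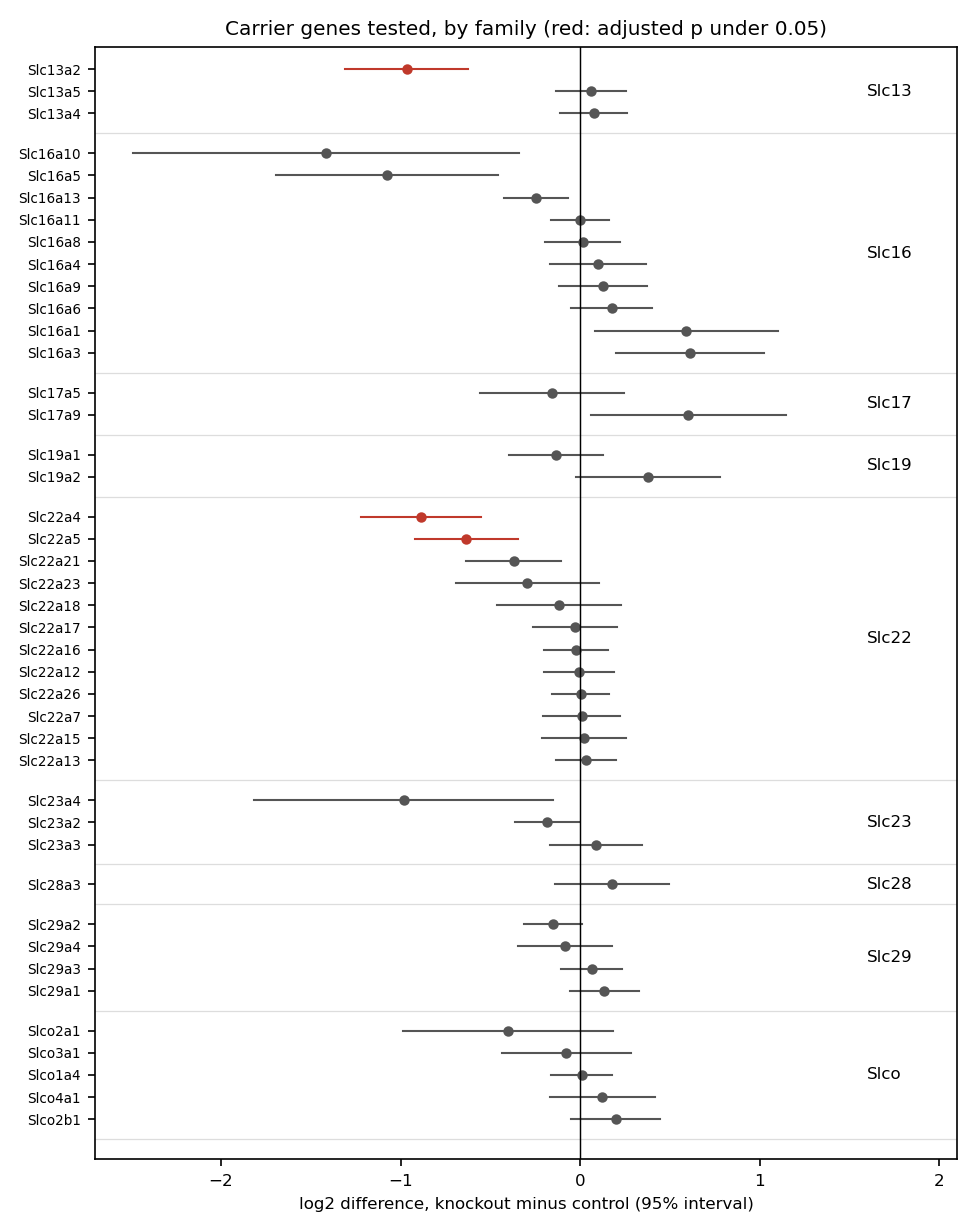
Log2 difference, knockout minus control, of the 42 tested carriers, grouped by family; points are limma estimates and bars 95% intervals. Slc13a2, Slc22a4 and Slc22a5 (red) have an adjusted p under 0.05.

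Of the Slc13 family, which carries citrate cycle acids and sulfate with sodium, 3 of 4 members were tested. Slc13a2 ran from 689 over a median of 812 to 1069 in knockouts, against 1587 and 1515 in controls. No knockout reached the controls, and the knockouts spread over a 1.55-fold range. The log2 difference was -0.97 ± 0.15 (SE, 95% interval -1.31 to -0.62; limma adjusted p = 0.0161), a 1.95-fold fall. The call was lost without knockout H replicate 5 (adjusted p = 0.0512), control replicate 1 (0.174) or control replicate 2 (0.0909). Slc13a5, a citrate carrier best known from liver, and Slc13a4, a sulfate carrier, did not pass: Slc13a5 averaged 21.6 ± 1.92 in knockouts and 20.3 ± 2.07 in controls, and Slc13a4 16.7 ± 1.82 in knockouts and 16.7 ± 2.81 in controls.

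Slc22a4, Slc22a5 and Slc22a21 encode the Octn carriers, which take up zwitterions such as carnitine and ergothioneine. They are neighbours on chromosome 11, in the order Slc22a5, Slc22a21, Slc22a4. Slc22a4 ran from 12.2 over a median of 14.1 to 17.4 in knockouts, against 53.2 and 29.7 in controls. The knockouts stood near the level kept for testing (an intensity of 13.6), both controls above every knockout. The log2 difference was -0.89 ± 0.15 (SE, 95% interval -1.22 to -0.55; limma adjusted p = 0.0175). At this low intensity it depends on the pseudocount, and it was -1.45 without one. The call was lost without control replicate 1 (-0.53, adjusted p = 0.162), knockout H replicate 4 (0.0592) or knockout L replicate 3 (0.0524).

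Slc22a5 ran from 243 over a median of 266 to 337 in knockouts, against 461 and 379.8 in controls. The groups did not overlap. The log2 difference was -0.63 ± 0.13 (SE, 95% interval -0.92 to -0.35; limma adjusted p = 0.0291), a 1.55-fold fall. Its other probe set read 62.4 ± 12.2 in knockouts and 116 and 74.7 in controls, a log2 difference of -0.56, and there the highest knockout, at 85.9, lay above control replicate 2. The call was lost with the mean of the probe sets (-0.60, adjusted p = 0.0591). It was also lost without knockout H replicate 4 (adjusted p = 0.0877), knockout L replicate 3 (0.0818), control replicate 1 (0.258) or control replicate 2 (0.151).

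Slc22a21, described in mice as a carnitine carrier, ran from 25.4 over a median of 31.5 to 39.3 in knockouts, against 37.4 and 45.1 in controls. Of the 8 knockouts 7 lay below both controls, and knockout L replicate 1 lay between them. The log2 difference of -0.37 ± 0.12 did not pass (limma adjusted p = 0.120), but did without knockout H replicate 2 (-0.36, adjusted p = 0.0443). Genes on either side did not pass: the interferon regulator Irf1 differed by -0.12 ± 0.20 and Pdlim4, a PDZ and LIM domain gene, by 0.18 ± 0.22 (SE). Beside Slc13a2, elsewhere on chromosome 11, the folate carrier Slc46a1 differed by -0.13 ± 0.19. These 3 genes are named for their position.

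**Figure D2:**
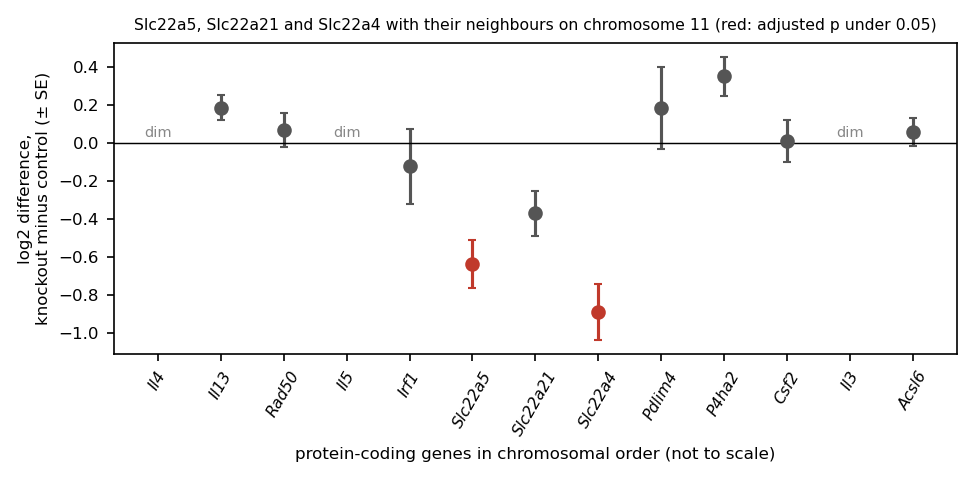
Log2 difference, knockout minus control, with SE, of Slc22a5, Slc22a21 and Slc22a4 and of the genes on either side in chromosomal order; "dim" marks genes that were not tested. Slc22a5 and Slc22a4 (red) passed the threshold, and no gene outside the trio did.

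Promoters are shown for the 3 carriers that fell and for Slc16a10, which had the widest difference among the members without passing. The sequences are RefSeq's for GRCm38.p6, 250 bases before and 50 from the transcription start on, 5′ to 3′ on the gene's strand. An entry was found for 62 of the 72 members. Capitals mark matches, on either strand, to GTTAAN, a half-site of the factor HNF1, to the E-box CACGTG and to the GC box GGGCGG of Sp1.
Slc13a2 (chr11:78422185-78422484, minus strand): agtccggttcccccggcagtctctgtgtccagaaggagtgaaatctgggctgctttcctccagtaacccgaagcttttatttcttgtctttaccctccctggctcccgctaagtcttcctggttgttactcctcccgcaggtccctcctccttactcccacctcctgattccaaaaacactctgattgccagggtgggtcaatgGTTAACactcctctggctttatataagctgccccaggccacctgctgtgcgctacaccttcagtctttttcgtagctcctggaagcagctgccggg
Slc22a4 (chr11:54028055-54028354, minus strand): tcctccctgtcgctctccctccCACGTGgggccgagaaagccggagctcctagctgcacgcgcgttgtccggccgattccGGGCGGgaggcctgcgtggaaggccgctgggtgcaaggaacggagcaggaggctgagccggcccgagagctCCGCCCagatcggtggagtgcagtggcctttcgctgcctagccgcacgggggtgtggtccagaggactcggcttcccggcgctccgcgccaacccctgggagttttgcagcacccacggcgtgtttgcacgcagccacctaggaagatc
Slc22a5 (chr11:53891654-53891953, minus strand): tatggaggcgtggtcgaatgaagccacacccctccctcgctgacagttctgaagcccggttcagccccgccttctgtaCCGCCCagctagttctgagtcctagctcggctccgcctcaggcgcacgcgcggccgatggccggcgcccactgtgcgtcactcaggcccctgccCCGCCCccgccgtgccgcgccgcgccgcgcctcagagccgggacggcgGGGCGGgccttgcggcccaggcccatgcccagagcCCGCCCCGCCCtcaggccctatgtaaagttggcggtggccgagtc
Slc16a10 (chr10:40142205-40142504, minus strand): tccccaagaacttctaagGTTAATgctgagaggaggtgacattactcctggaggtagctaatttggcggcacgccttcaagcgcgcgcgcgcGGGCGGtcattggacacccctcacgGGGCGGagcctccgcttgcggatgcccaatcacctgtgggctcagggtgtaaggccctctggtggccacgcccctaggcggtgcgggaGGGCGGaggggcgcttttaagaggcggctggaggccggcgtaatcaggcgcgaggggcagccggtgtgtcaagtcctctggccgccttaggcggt
The Slc13a2 window held GTTAAN at 1 place, 46 bases before the start, and no GC box. The GC box stood at 2 places for Slc22a4, at 5 for Slc22a5 and at 3 for Slc16a10. Slc22a4 also held CACGTG at 1 place and Slc16a10 GTTAAN at 1. Among 32851 promoters of this length, 24.1% held GTTAAN, 35.7% GGGCGG and 7.15% CACGTG. Also searched were AGATAA (in 11.2% of promoters, a GATA motif), TTTATG (11.9%, a Cdx motif) and CAAAGT (14.4%, an HNF4 half-site), and none of these was in the 4 windows. Only these exact letters were searched, so other forms of the motifs may be present. The GC share was 54.3% for Slc13a2, 69.0% for Slc22a4, 72.7% for Slc22a5 and 65.3% for Slc16a10, against a median of 52.7% over the same 32851 promoters. These matches describe letters and do not show binding.

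Of the 21 Slc22 genes, which include organic cation and anion carriers, 12 were tested, and the other 9 tested members did not pass. Slc22a23, whose substrate is not settled, averaged 246 ± 33.8 in knockouts and 298 ± 22.7 in controls. All 8 knockouts lay below both controls, but by a narrow margin, with knockout H replicate 1 at 282 and control replicate 1 at 282 (log2 difference of -0.29 ± 0.18, limma adjusted p = 0.417). Slc22a18, an imprinted gene, averaged 256 ± 34.7 in knockouts and 298 ± 13.1 in controls, with 7 of 8 knockouts below both controls. Its other probe set overlapped, at 218 ± 31.0 in knockouts and 244 and 224 in controls (log2 difference 0.02). On the probe sets used, knockout H replicate 2 was the lowest array for Slc22a23 and Slc22a18, at 177 and 186. That array was the highest in club cell markers (mean log2 deviation 1.10), whose part was not tested. Slc22a16, known in humans as a carnitine carrier of testis, averaged 35.1 ± 4.58 in knockouts and 40.8 ± 1.51 in controls, with 7 of 8 knockouts below both, and its covariate-adjusted log2 difference was -0.02 ± 0.08. The remaining 6 had log2 differences between -0.03 and 0.03. The kidney carriers Slc22a2, Slc22a6 and Slc22a8 were among the 9 members too dim to be tested.

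In the Slc16 family, the monocarboxylate carriers, 10 of 13 members were tested and none passed. Slc16a10, a carrier of aromatic amino acids and thyroid hormone, ran from 24.6 over a median of 69.8 to 106 in knockouts, against 253 and 184 in controls. The groups were well apart, and the knockouts spread over a 4.30-fold range. The log2 difference was -1.41 ± 0.47 (SE, 95% interval -2.49 to -0.34; limma adjusted p = 0.139). Its other probe set above the testing level read 36.0 ± 8.34 in knockouts and 86.1 and 93.7 in controls, with every knockout below both controls (log2 difference -1.09). The lowest arrays were knockout H replicate 3 (24.6) and knockout L replicate 3 (31.9). Those were the knockouts highest in smooth muscle markers, with mean log2 deviations of 0.43 and 0.44, against -0.52 and 0.62 in controls. Slc16a10 passed in 3 of 23 other settings: with no covariates (-1.53, adjusted p = 0.0261), with lung transcripts as a covariate (-1.59, 0.0244) and with smooth muscle transcripts as one (-1.37, 0.0349). Over all settings its log2 difference ran from -1.75 to -0.74.

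Slc16a5, known in humans to take up the drug bumetanide, ran from 61.7 over a median of 96.3 to 158 in knockouts, against 245 and 204 in controls. No knockout reached the controls. The log2 difference of -1.08 ± 0.27 missed the threshold (limma adjusted p = 0.0624). It passed in 5 of 23 other settings: with the filter at the 50th percentile, with no covariates, in the lower number range alone, without knockout H replicate 3 and without knockout L replicate 1 (adjusted p from 0.00743 to 0.0499). Over all settings its log2 difference ran from -1.20 to -0.57. Slc16a13, a lactate carrier, was dim and lay below both controls in all 8 knockouts (20.3 ± 2.07 in knockouts and 28.7 ± 4.25 in controls; log2 difference of -0.24 ± 0.08, limma adjusted p = 0.125) and passed with no covariates (-0.30, adjusted p = 0.0332).

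The lactate carriers Slc16a1 and Slc16a3 had positive differences that did not pass. Slc16a3, known to export lactate from glycolytic cells, ran from 22.9 over a median of 42.8 to 47.8 in knockouts, against 19.8 and 32.1 in controls. Of the knockouts 7 lay above both controls, and knockout H replicate 2 lay between them (log2 difference of 0.61 ± 0.18, limma adjusted p = 0.10). Slc16a1, which carries lactate, pyruvate and butyrate, ran from 281 over a median of 435 to 553 in knockouts, against 261 and 377 in controls. Of its knockouts 5 lay above both controls (log2 difference of 0.59 ± 0.23, limma adjusted p = 0.187). Of 23 other settings Slc16a1 passed in 2, with lung transcripts (0.70, adjusted p = 0.00641) and with smooth muscle transcripts (0.57, 0.0128) as a covariate. Slc16a3 passed in 5: with either covariate, in the lower number range alone, without knockout H replicate 2, and without both arrays highest in lung transcripts (adjusted p from 0.0179 to 0.0430). Over all settings the log2 difference of Slc16a1 ran from 0.30 to 0.84 and that of Slc16a3 from 0.39 to 0.92. The other 5 tested members had log2 differences between -0.00 and 0.18.

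**Figure D3:**
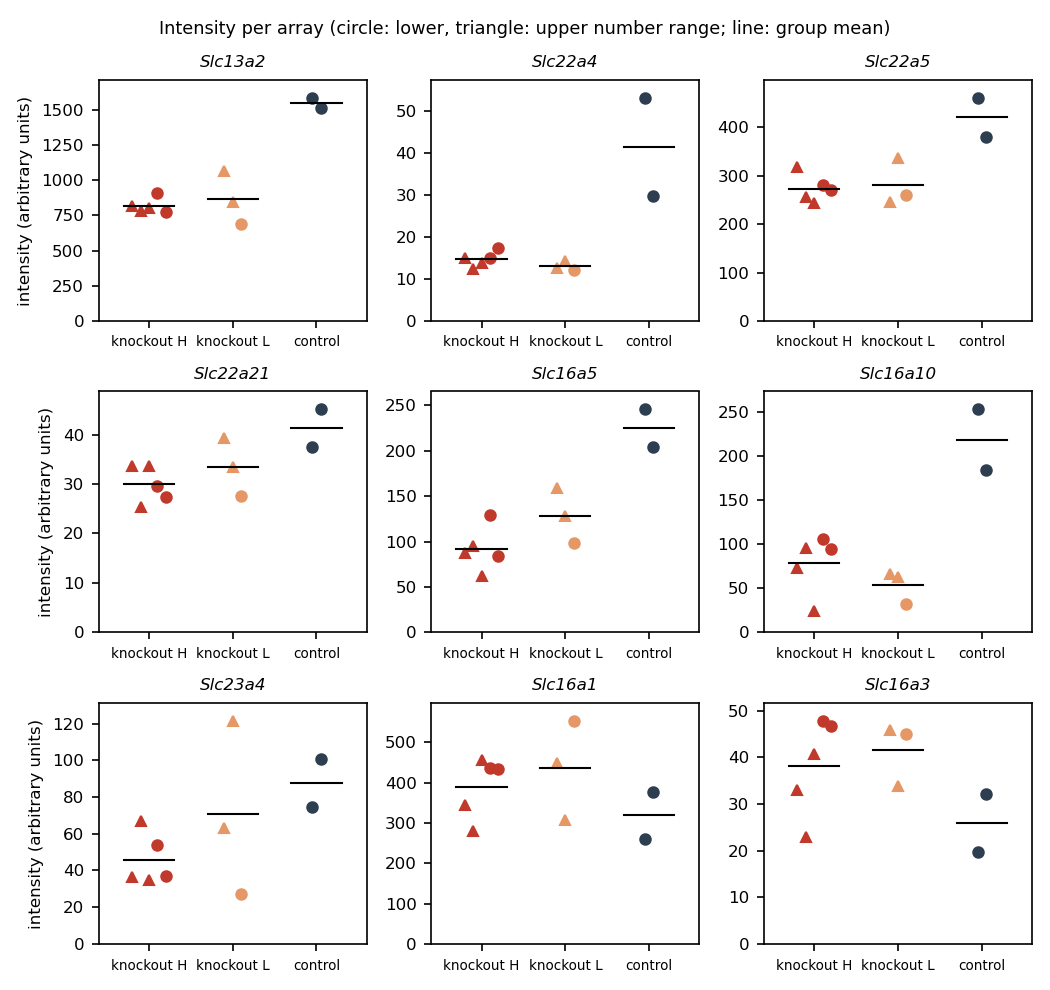
Intensity on each array of 9 carriers in knockout H (5), knockout L (3) and control (2) mice; circles are arrays of the lower and triangles of the upper number range, and lines are group means. Knockouts and controls do not overlap for Slc13a2, Slc22a4, Slc22a5, Slc16a5 and Slc16a10, and overlap for the other 4.

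No carrier of ascorbate, folate or thiamine passed. Slc23a4, known in rats as an intestinal nucleobase carrier, ran from 27.4 over a median of 45.4 to 121 in knockouts, against 74.6 and 101 in controls. Of the knockouts 7 lay below both controls, and knockout L replicate 2 lay above both. The log2 difference of -0.98 ± 0.37 did not pass (limma adjusted p = 0.180), but did in the lower number range alone (-0.90, adjusted p = 0.0454). The ascorbate carrier Slc23a2 averaged 76.0 ± 6.23 in knockouts and 93.8 ± 0.197 in controls. All 8 knockouts lay below both controls (log2 difference of -0.19 ± 0.08, limma adjusted p = 0.240). Slc23a3, without a settled substrate, averaged 16.8 ± 2.75 in knockouts and 14.4 ± 1.88 in controls. The reduced folate carrier Slc19a1 averaged 107 ± 15.6 in knockouts and 107 ± 1.24 in controls. The thiamine carrier Slc19a2 averaged 50.2 ± 9.42 in knockouts and 36.0 ± 4.58 in controls, with 7 of 8 knockouts above both controls (log2 difference of 0.38 ± 0.18, limma adjusted p = 0.286). Its next brightest probe set read 39.3 ± 7.97 in knockouts and 20.7 and 26.6 in controls, every knockout above both (log2 difference 0.40).

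No nucleoside or nucleotide carrier passed with the settings reported. Slc28a3, which concentrates nucleosides with sodium, averaged 34.7 ± 6.16 in knockouts and 27.3 ± 3.35 in controls (log2 difference 0.18 ± 0.14). The equilibrative nucleoside carrier Slc29a1 was the 1 tested member with all 8 knockouts above both controls. It ran from 65.4 over a median of 70.7 to 77.8 in knockouts, against 62.1 and 61.2 in controls (log2 difference of 0.13 ± 0.09, limma adjusted p = 0.443). Its relatives did not pass either: Slc29a2 differed by -0.15 ± 0.07, the lysosomal Slc29a3 by 0.06 ± 0.07 and the monoamine carrier Slc29a4 by -0.08 ± 0.12. The vesicular nucleotide carrier Slc17a9 ran from 39.0 over a median of 62.2 to 99.5 in knockouts, against 45.6 and 39.1 in controls. Of the knockouts 6 lay above both controls (log2 difference of 0.60 ± 0.24, limma adjusted p = 0.207). It passed in 1 of 23 other settings, with lung transcripts as a covariate (0.70, adjusted p = 0.0216). Its other probe set read 37.6 ± 10.3 in knockouts and 23.2 and 24.8 in controls, every knockout above both. The lysosomal sialic acid exporter Slc17a5 averaged 136 ± 21.1 in knockouts and 157 ± 9.49 in controls, with 7 of 8 knockouts below both (log2 difference -0.16 ± 0.18). The other 5 of 7 Slc17 genes, phosphate, urate and glutamate carriers among them, were not tested.

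Of the 15 Slco genes, which take up bile acids, steroid conjugates, prostaglandins and thyroid hormones, 5 were tested and none passed. The prostaglandin carrier Slco2a1 averaged 237 ± 61.1 in knockouts and 273 ± 3.49 in controls. Knockout H replicate 1 was lowest, at 155, and knockout L replicate 2 highest, at 355 (log2 difference of -0.40 ± 0.26, limma adjusted p = 0.453). Slco2b1, a carrier of steroid sulfates, averaged 113 ± 10.3 in knockouts and 97.0 ± 0.942 in controls, with 7 of 8 knockouts above both controls (log2 difference of 0.20 ± 0.11, limma adjusted p = 0.373). Its next brightest probe set overlapped, at 98.4 ± 6.63 in knockouts and 103 and 85.6 in controls (log2 difference 0.04). Slco3a1, Slco4a1 and Slco1a4 differed by -0.08, 0.12 and 0.01. The 30 members that were not tested, 10 of them Slco genes, reached at most 17.6 on any array. At these low levels all 8 knockouts lay below both controls for 2 of these 30, Slc22a22 and Slco1a1, and above both for 1, Slc17a1. Of the 13644 tested genes 1602 lay below both and 1370 above both, so such a separation alone does not set these members apart.

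More than 1 probe set was present for 38 of the 72 members. In 15 tested members 22 further probe sets lay above the testing level, and 17 of them had the same sign as the one used. The 5 of the other sign belonged to Slc22a18, Slc23a2, Slco2a1 and Slco3a1 (a pair), and their log2 differences lay between 0.00 and 0.09. Slc13a2, Slc22a4 and Slc22a21 rest on 1 probe set each.

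**Figure D4:**
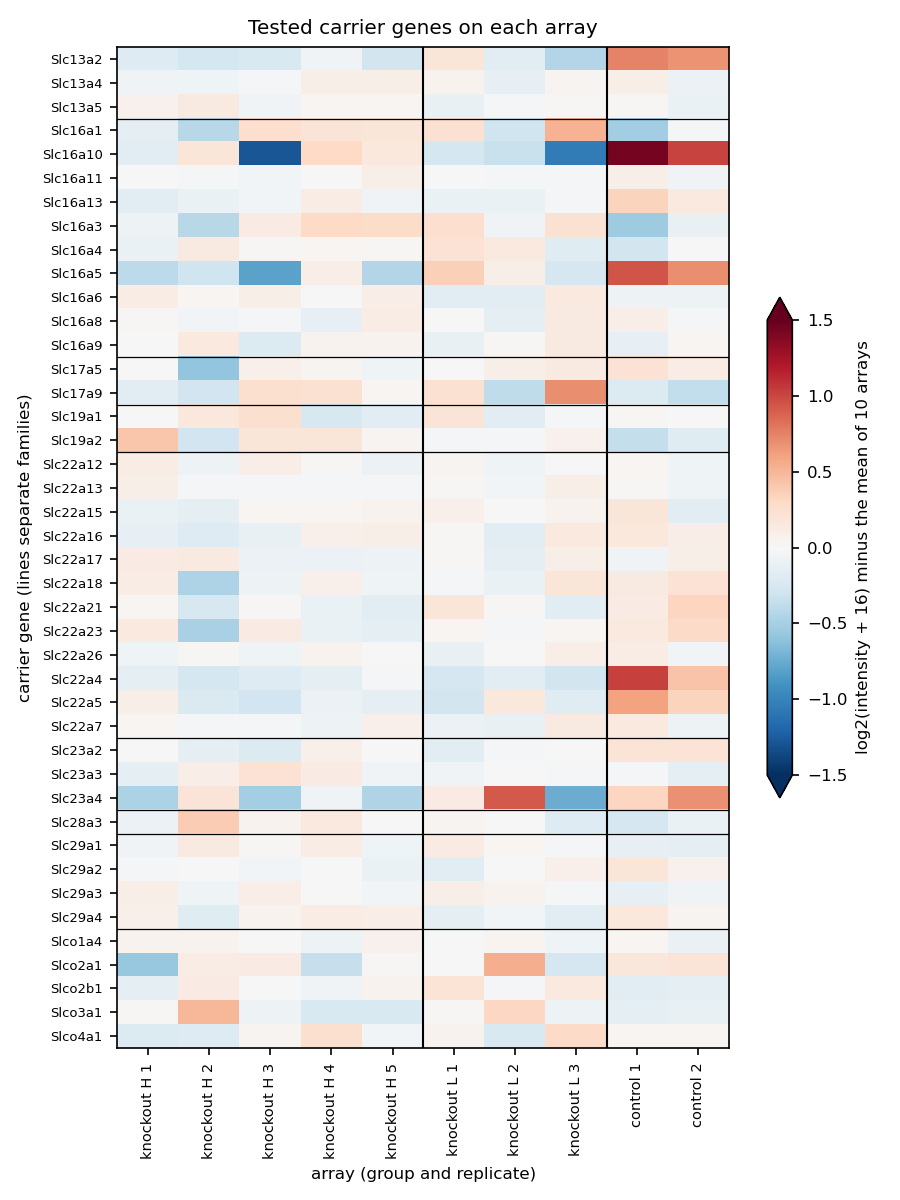
Deviation of log2(intensity + 16) from the mean of the 10 arrays for the 42 tested carriers (rows, lines separate families) on each array (columns: knockout H, knockout L, control). Slc13a2, Slc16a5, Slc16a10, Slc22a4 and Slc22a5 are high on both controls, and Slc16a10 is lowest on knockout H replicate 3.

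Between knockout H and knockout L mice no carrier passed. With limma 0 genes did (0.00%), and 303 genes had an unadjusted p under 0.05 (2.22%), 0 of them carriers. The 5 and 3 arrays overlapped for all 42 carriers, while 1.55% of all genes showed no overlap. The smallest p was that of Slc29a4, with 52.0 ± 5.37 in knockout H and 45.1 ± 2.75 in knockout L (log2 difference 0.19, 95% interval -0.02 to 0.40). Slc16a5 had 91.4 ± 24.6 in knockout H and 128 ± 30.2 in knockout L (-0.35, interval -0.89 to 0.19). The carriers that fell against controls had intervals around 0: Slc13a2 read 819 ± 54.0 in knockout H and 867 ± 192 in knockout L (interval -0.39 to 0.27). Slc22a5 read 274 ± 28.6 in knockout H and 281 ± 49.0 in knockout L (interval -0.17 to 0.37). Slc22a4 read 14.7 ± 1.86 in knockout H and 13.1 ± 1.11 in knockout L (interval -0.13 to 0.47).

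Between the upper and lower number ranges no carrier passed with limma, while 0.645% of genes did (0.308% lower, 0.337% higher). An unadjusted p under 0.05 was found for 4 carriers, against 12.1% of all genes. Slc16a1 (-0.46 ± 0.20), Slc16a3 (-0.36 ± 0.16) and Slc22a16 (-0.22 ± 0.07) had negative and Slco3a1 (0.38 ± 0.14) a positive log2 difference. Slc22a16 averaged 32.2 ± 2.79 in upper-range and 39.9 ± 1.32 in lower-range knockouts. Between the letters M and F no carrier passed, while 0.0220% of genes did (0.00733% lower, 0.0147% higher), and 0 of 42 had an unadjusted p under 0.05, against 4.83% of all genes. Xist, the transcript of the inactive X chromosome, read at most 19.2 with M and at least 713 with F. The Y chromosome gene Eif2s3y read at least 80.1 with M and at most 4.58 with F, and Kdm5d at least 48.2 and at most 5.10. The letters thus mark males and females. Slc22a5 had the smallest p among carriers, with 285 ± 53.9 for M and 335 ± 89.9 for F (log2 difference -0.25, 95% interval -0.52 to 0.01).

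Genes that work with these carriers were taken from 7 lists and compared between knockouts and controls. The lists were chosen with earlier results of these data known, so their counts are not a sample of all genes. Over all genes tested, 2.79% were called lower and 1.52% higher. Of 11 scaffolds and partners 4 were called, all lower, with a list median of -0.06. Pdzk1, a PDZ protein known to bind Octn carriers, ran from 32.6 over a median of 89.5 to 223 in knockouts, against 1463 and 780.1 in controls. Amn, the membrane anchor of cubilin (log2 difference -1.55 ± 0.23), Cubn itself (-2.60 ± 0.38) and the scaffold Slc9a3r1 (-0.74 ± 0.11) also fell, and Gorasp2 had 0.25 ± 0.09 without passing. Of 12 efflux pumps and exchangers 5 were called, all lower (median -0.42). Slc47a1, which exports organic cations, ran from 8.78 over a median of 14.8 to 22.4 in knockouts, against 101 and 55.5 in controls (log2 difference of -1.67 ± 0.20, limma adjusted p = 0.00892). The efflux pump Abcb1a ran from 154 over a median of 361 to 483 in knockouts, against 1533 and 1014 in controls (log2 difference of -1.66 ± 0.37, limma adjusted p = 0.0397). The conjugate pump Abcc2 (-1.37 ± 0.18) and the bile acid exporter subunits Slc51a (-0.69 ± 0.11) and Slc51b (-0.75 ± 0.09) also fell, and Abcg2 had -0.61 ± 0.21 without passing.

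Of 11 vitamin and short-chain acid carriers of other families 2 were called, both lower (median -0.11). Slc5a6, which takes up biotin and pantothenate, ran from 22.1 over a median of 30.9 to 40.1 in knockouts, against 108 and 56.7 in controls. The taurine carrier Slc6a6 ran from 393 over a median of 408 to 450.3 in knockouts, against 549 and 566 in controls. The riboflavin carrier Slc52a3 (-0.71 ± 0.25) and the short-chain acid carrier Slc5a8 (0.49 ± 0.18) did not pass. Of 13 vitamin, carnitine and ascorbate enzymes 1 was called, Aldh9a1 of carnitine synthesis, which fell (-0.64 ± 0.12, limma adjusted p = 0.0248), and Shmt1 of folate metabolism had 0.38 ± 0.11 without passing (list median 0.01). Of 18 nucleoside enzymes 1 was called, the AMP deaminase Ampd3, which rose (0.51 ± 0.09, limma adjusted p = 0.0175). Adenosine deaminase, Ada, had -2.16 ± 0.70 and the pyrimidine enzyme Dpyd -0.63 ± 0.19 without passing (list median -0.01). Of 14 regulators 1 was called, the intestinal factor Cdx2, which fell (-0.85 ± 0.12, limma adjusted p = 0.0111), and Vdr (-0.40 ± 0.10) and Ppara (-0.88 ± 0.25) did not pass (list median -0.15). Of 10 genes of glycolysis and lactate 1 was called, the oxygen-regulated factor Hif1a, which rose (1.24 ± 0.26, limma adjusted p = 0.0331), and the glucose carrier Slc2a1 (1.26 ± 0.43) and the hexokinase Hk2 (0.95 ± 0.33) did not pass (list median 0.36).

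**Figure D5:**
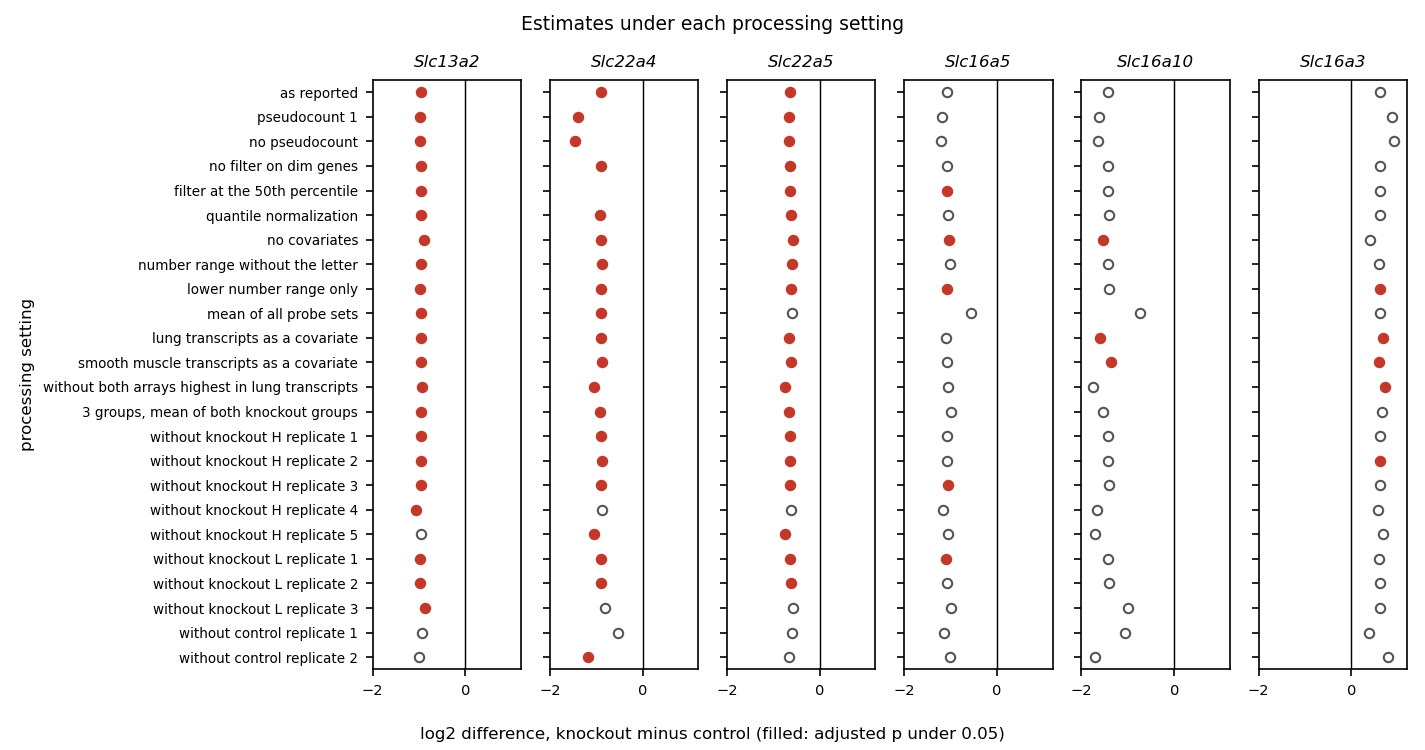
Log2 difference, knockout minus control, of 6 carriers (columns) under each processing setting (rows); filled points have an adjusted p under 0.05. Each of the 6 keeps its sign in every setting shown, while the calls of Slc13a2, Slc22a4 and Slc22a5 are lost without some single arrays.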

How the data were processed

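The authors deposited a linear intensity for each probe set on each array, as the values show; how they corrected background, summarized and scaled it is not stated in the labels. Array medians of 18.4 to 18.8 show that the arrays were already on a common scale, and no further normalization was applied. Of 45101 probe sets, 64 array controls and 932 with several gene symbols were left out, 2 of which carry symbols of these families. One probe set per gene was used, that with the highest mean of log2(intensity + 16). Genes not above the 25th percentile of mean values were not tested, which left 13644 of 18193. No arrays were identical.

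Groups were compared with limma 3.58.1 (R 4.3.3) on log2(intensity + 16), which understates differences of dim genes, with number range and letter in the model, and p-values were adjusted by Benjamini-Hochberg over every gene tested. Knockouts against controls and the number ranges used 2 groups; H against L and M against F used 3. The code was tested on simulated data. Alternatives were the pseudocount, filter, normalization, covariates, probe sets and arrays left out.

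Members, gene lists, marker lists and motifs were chosen with earlier results of these data known. Described in full were members past the threshold, those with all knockouts on 1 side of both controls and a log2 difference of at least 0.5, the brightest of each family, and those whose probe sets differ in direction; from each list, genes past the threshold and at most 3 others by lowest p. Having 2 controls limits the precision.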

Additional observations from a re-analysis of the deposited data

Results flagged for a closer look

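Among 17 carriers, the knockout H arrays and all knockouts were searched for an array far from its group, 34 groups in all, and 3 were found; chance marks about 1 in 20 groups. Slc17a5, the lysosomal sialic acid exporter, was lowest on knockout H replicate 2, at 86.1 with the next array at 132, both among knockout H and among all knockouts. Slc16a10 was lowest among knockout H on replicate 3, at 24.6 with the next array at 73.1.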

How the results depend on the processing

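In the comparison of knockouts with controls, 381 genes were lower and 207 higher, with 3 carriers lower and 0 higher. Without covariates 740 genes were lower and 626 higher, with 6 carriers lower. In the lower number range alone 600 were lower and 433 higher, with 5 carriers lower and 1 higher. With lung transcripts as a covariate 448 genes and 3 carriers were higher, and with smooth muscle transcripts 327 genes and 2 carriers. Without both arrays highest in lung transcripts 133 genes and 1 carrier were higher, and with 3 groups 95 genes. Leaving out 1 array at a time gave 0 to 487 genes lower and 0 to 326 higher, with 0 to 4 carriers lower and 0 to 1 higher; 0 genes passed without control replicate 1. With 1 control left, it is assumed to vary like the other arrays. None of the 17 carriers recomputed under each setting changed its sign; the others were not followed this way.

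For the number ranges (42 genes lower, 46 higher) the counts were 76 and 122 without the letter, 27 and 14 with the mean of all probe sets, and 10 and 3 without both arrays highest in lung transcripts. Leaving out 1 array gave 10 to 54 lower and 3 to 69 higher. For the letters (1 gene lower, 2 higher), 1 was higher with the filter at the 50th percentile, and 2 were lower without covariates and with the mean of all probe sets. No carrier passed in any setting of H versus L, the ranges or the letters. With the filter at the 50th percentile Slc22a4 was too dim to be tested. The cause of these moves was not tested, apart from fewer arrays or genes in a fit. No paired analysis was possible because the titles give no replicate numbers shared between groups.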

Other observations

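The 3 carriers that fell lie on chromosome 11, as do 10 of the 42 tested carriers. Over that chromosome 42 of 1159 tested genes were called lower (3.62%), and over the 20 chromosomes examined the share ran from 1.33% (X) to 3.70% (15). This count was made after the calls had been seen.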
